A study of Mus musculus with 5 samples.

Results

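Mitochondrial DNA encodes its own small set of RNAs, and 4 of them were followed here across CD4 T cells of the mouse colon and lymph node, with and without near-infrared light. They were chosen by name: mt-Rnr1 and mt-Rnr2, the RNAs of the small and the large mitochondrial ribosomal subunit, mt-Co1, a messenger RNA for the catalytic subunit of complex IV, and mt-Nd1, a messenger RNA for a membrane subunit of complex I. All 4 were listed in each of the 4 count tables, among 10291 genes in all and 22 mitochondrially encoded genes. The light groups, colon light and lymph node light, came from mice given a 980 nm laser (output 1.22 W, duty 80%, lit area 4 square centimetres) in sessions of 5 minutes, repeated at intervals of 2 days. The other groups, colon control and lymph node control, are labelled only as control, so it is not known whether they were handled or sham treated. Each of the 4 groups is 1 library of cells labelled CD4 T cell; strain, age, sex, the number of treatments and the number of animals behind a library are not given in the labels. Another sample pools both tissues and both treatments and holds only a barcode sheet, so it was not compared.

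Mitochondrial DNA is transcribed from both strands into long precursor RNAs that are cut at the transfer RNAs lying between the other genes. The ribosomal RNA genes lie next to each other near the start of the heavy-strand transcript, and mature ribosomal RNA is usually far more abundant in a cell than any mitochondrial messenger RNA. The messenger RNAs encode core subunits of the respiratory chain and of ATP synthase; the remaining subunits, and all proteins of the mitochondrial ribosome, come from nuclear genes. In these libraries RNA was captured through an oligo-dT probe, per the labels' protocols, so a count depends on a run of A in the RNA as well as on its amount; mitochondrial messenger RNAs carry poly(A) tails and mitochondrial ribosomal RNAs carry short ones.

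The unit used throughout is the molecule-equivalent. Barcode columns were not taken as cells: most gene lines could be written as sums of column patterns that recur between genes, and a pattern was read as 1 molecule counted in many columns. Summed counts were therefore divided by the columns per molecule of that library. The labels do not state how counts were made, and every interval and floor given here depends on this reading of the columns. This gave 39297 molecule-equivalents for colon light, 6180 for colon control, 21214 for lymph node light and 11499 for lymph node control. Levels are given as CPM, a gene's share of its total times 1000000. The colon control library stood apart: it was the shallowest, and it shared at most 5 column barcodes with any other library, whereas the other 3 shared 373 or 374 with each other. The comparisons of lymph node light with lymph node control and of colon light with lymph node light do not use it. Intervals are 95% intervals that cover counting error only, exact except for the differences between light ratios of the tissues, which are normal on the log2 scale; with 1 library per group there was no replicate check and no p-value. In RNA of whole libraries, fewer cells of a type and less RNA per cell cannot be told apart.

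On the mm10 build the members lie on the plus strand of the mitochondrial chromosome, mt-Rnr1 at chrM:70-1024, mt-Rnr2 at chrM:1094-2675, mt-Nd1 at chrM:2751-3707 and mt-Co1 at chrM:5328-6872. The 60 bases at the 3′ end of each annotated RNA are shown first. A poly(A) tail is not part of the genomic sequence, and where tails begin was not tested. The annotated end of mt-Co1 overlaps mt-Ts1, a transfer RNA gene on the minus strand at chrM:6870-6938. The bases shown for mt-Co1 therefore need not be the end of the mature RNA. Sequences are the GENCODE M21 transcripts, 5′ to 3′, and capitals mark runs of 4 or more A.
mt-Rnr1, chrM:965-1024: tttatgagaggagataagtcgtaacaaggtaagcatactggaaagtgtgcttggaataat
mt-Rnr2, chrM:2616-2675: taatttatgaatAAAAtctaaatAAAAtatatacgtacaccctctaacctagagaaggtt
mt-Co1, chrM:6813-6872: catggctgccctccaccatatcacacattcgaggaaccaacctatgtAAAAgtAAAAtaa
mt-Nd1, chrM:3648-3707: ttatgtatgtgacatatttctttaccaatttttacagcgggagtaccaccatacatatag
The longest internal run of A in each RNA is shown next, as a place inside the molecule that an oligo-dT probe could also meet.
mt-Rnr1, chrM:720-764: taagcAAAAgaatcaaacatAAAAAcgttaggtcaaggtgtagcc
mt-Rnr2, chrM:1468-1514: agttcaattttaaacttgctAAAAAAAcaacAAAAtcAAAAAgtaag
mt-Co1, chrM:6096-6142: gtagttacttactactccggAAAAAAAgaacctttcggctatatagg
mt-Nd1, chrM:3600-3645: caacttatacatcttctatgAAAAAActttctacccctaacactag
The longest run was 5 A in mt-Rnr1, 7 in mt-Rnr2, 7 in mt-Co1 and 6 in mt-Nd1, where it ended 82 bases before the 3′ end. Runs of 6 or more A numbered 4 in mt-Rnr2, 1 in mt-Co1, 1 in mt-Nd1 and 0 in mt-Rnr1, counted on the strand shown. Of 22472 annotated mouse transcripts of 900 to 1600 bases, 36.1% held a run of at least 6 A and 18.7% a run of at least 7. Where in a molecule the counted reads began is not recorded in the tables, and the part of internal runs in the counts was not tested.

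Of all the mitochondrially encoded RNAs, mt-Rnr2, the scaffold of the large mitochondrial ribosomal subunit, gave the most counts in every library. It stood at 53715 CPM (51506 to 55990) in colon light and 8908 CPM (6718 to 11578) in colon control. In the lymph node it stood at 34062 CPM (31661 to 36591) in the light library and 17772 CPM (15436 to 20356) in control. Each of these intervals was separate from the other 3, in the order colon light, lymph node light, lymph node control, colon control. Every barcode column of the colon light, lymph node light and lymph node control tables held a count of mt-Rnr2, as did 382 of 384 columns of the colon control table.

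The small-subunit RNA, mt-Rnr1, followed the same order with only the first step clear. It stood at 16775 CPM (15528 to 18093) in colon light and 2343 CPM (1296 to 3895) in colon control. In the lymph node it stood at 4127 CPM (3309 to 5085) in the light library and 3164 CPM (2222 to 4370) in control. Colon light was far above the rest, while the other 3 levels had intervals that overlapped their neighbours. Together the ribosomal RNAs took 7.05% of counts in colon light, 1.13% in colon control, 3.82% in lymph node light and 2.09% in lymph node control.

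The messenger RNAs were measured on far fewer molecules. For mt-Co1, the core oxidase subunit, levels were 1036 CPM (742 to 1406) in colon light and 134 CPM (1.74 to 852) in colon control, against a limit of 485 CPM that a count of 0 would allow in that library. In lymph node light it stood at 784 CPM (454 to 1261) and in lymph node control at 326 CPM (84.1 to 859). The number of molecules recovered from the column patterns was 51.0, 1, 21 and 4 in colon light, colon control, lymph node light and lymph node control, so the colon control level rested on a single molecule.

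The complex I subunit mt-Nd1 ranked differently from the other 3, with lymph node light first. It stood at 1403 CPM (1057 to 1825) in colon light and 493 CPM (104 to 1430) in colon control. In the lymph node it stood at 2232 CPM (1643 to 2964) in the light library and 1290 CPM (720 to 2133) in control. Neighbouring levels in the order lymph node light, colon light, lymph node control, colon control had overlapping intervals. These levels came from 70.8, 3, 53 and 15.9 recovered molecules in colon light, colon control, lymph node light and lymph node control.

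**Figure D1:**
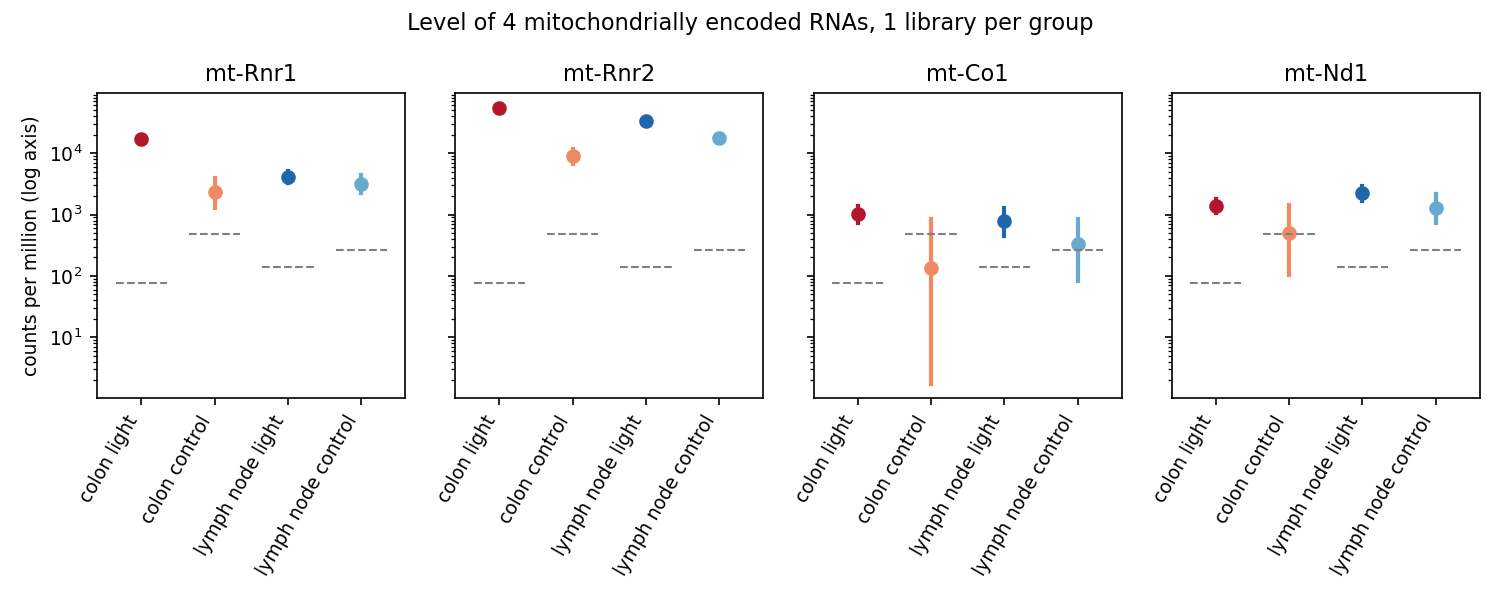
Level of each RNA in CPM on a log axis, 1 library per group, with exact 95% counting intervals as vertical lines and, as grey dashes, the floor used for a count of 0 in that library. The ribosomal RNAs lie well above the dashes in every library, while mt-Co1 in colon control, at 134 CPM, lies under its dash of 485 CPM.

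The 2 kinds of RNA were then compared within each library, where the library total cancels out. The ribosomal RNAs exceeded the messenger RNAs by 28.9 times (23.6 to 35.8) in colon light and 17.9 times (6.61 to 69.5) in colon control. The ratio was 12.7 (9.81 to 16.6) in lymph node light and 13.0 (8.08 to 22.0) in lymph node control. Colon light was therefore above both lymph node libraries, and colon control could not be placed, since its interval covered all 3 other values. Per kilobase of RNA the ratios were nearly the same, at 28.5, 17.7, 12.5 and 12.8 in colon light, colon control, lymph node light and lymph node control.

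Within the ribosomal RNAs, the balance of large to small subunit RNA also differed between colon light and both lymph node libraries, and the interval of colon control overlapped each of the others. The ratio of mt-Rnr2 to mt-Rnr1 counts was 3.20 (2.93 to 3.50) in colon light and 3.80 (2.10 to 7.33) in colon control, against 8.25 (6.60 to 10.4) in lymph node light and 5.62 (3.93 to 8.23) in lymph node control. Per kilobase these were 1.93, 2.30, 4.98 and 3.39 in the same libraries. Within the messenger RNAs, the ratio of mt-Nd1 to mt-Co1 counts was 1.35 (0.89 to 2.08) in colon light and 2.85 (1.60 to 5.32) in lymph node light. It was 3.69 in colon control and 3.95 in lymph node control, where 1 and 4 molecules of mt-Co1 give intervals too wide to place either value.

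**Figure D2:**
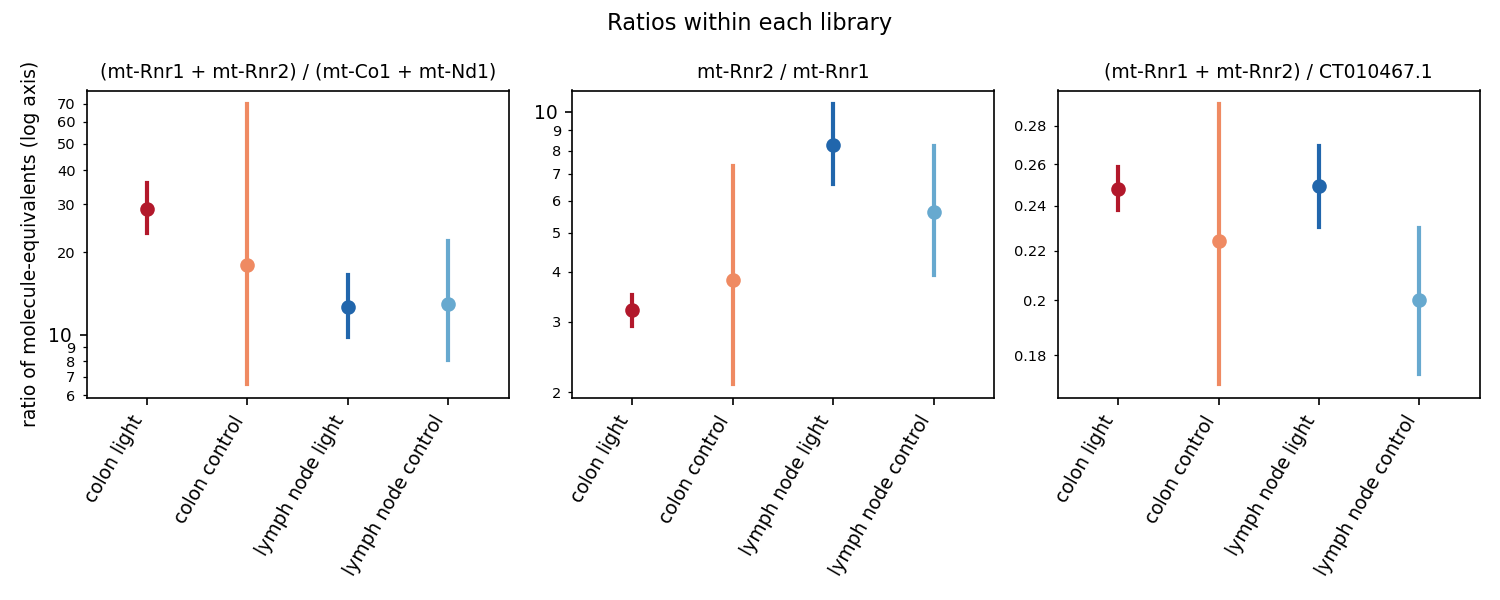
Ratios of molecule-equivalents within each library on log axes, with 95% intervals: ribosomal to messenger members (left), mt-Rnr2 to mt-Rnr1 (middle), and mitochondrial ribosomal RNA to CT010467.1, a nuclear ribosomal RNA gene (right). Colon light has the highest value on the left, 28.9, and the lowest in the middle, 3.20, while the right panel spans only 0.200 to 0.249.

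The first comparison sets light against control in the lymph node. Both the ribosomal RNAs and the messenger members were higher in lymph node light than in lymph node control, the messenger members with the wider interval. Mitochondrial messenger RNAs other than the members had a log2 ratio of 0.52 (-0.37 to 1.51), which includes 0. The ribosomal RNAs summed to 38188 CPM in lymph node light and 20936 CPM in lymph node control, a log2 ratio of 0.87 (0.66 to 1.08). The messenger members summed to 3016 CPM in lymph node light and 1617 CPM in lymph node control, a log2 ratio of 0.89 (0.14 to 1.73); with only the columns named in the barcode sheet it was 0.62 (-0.11 to 1.41), which includes 0. The ratio of ribosomal to messenger RNA therefore differed by a log2 value of -0.033, with an interval of -0.85 to 0.79, that is 0.55 to 1.73 times the value in lymph node control.

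Among the single members, mt-Rnr2 was higher by a log2 ratio of 0.94 (0.71 to 1.17), and its interval excluded 0. The log2 ratio was 0.38 (-0.19 to 0.98) for mt-Rnr1, 1.19 (-0.39 to 3.37) for mt-Co1 and 0.78 (-0.08 to 1.74) for mt-Nd1. All 4 values were positive, and 3 of the intervals included 0; with median-of-ratios scaling the values were 0.62 (0.05 to 1.22) for mt-Rnr1 and 1.01 (0.16 to 1.98) for mt-Nd1, which exclude 0. Of the 4, only mt-Co1 passed a limit of 2-fold, in a comparison where 188 genes had 20 or more molecule-equivalents. Of these, 5.32% were higher by 2-fold or more, 5.85% were lower by as much, and 11.2% were one or the other. With 16.6 molecule-equivalents in lymph node light and 3.75 in lymph node control, mt-Co1 only just met the filter, mainly through the library where it was higher. Its call and its part in the median of the members depend on that filter. The median log2 ratio was 0.86 over the 4 members and -0.16 over all 188 genes, whose middle 50% lay between -0.47 and 0.28. Median-of-ratios scaling put 18 genes past 2-fold upward and 7 downward, in place of 10 and 11, and of the members it put mt-Rnr2 at 1.18, mt-Co1 at 1.41 and mt-Nd1 at 1.01 past that limit. Totals were also taken without any mitochondrially encoded gene and without cytosolic ribosomal RNA genes, called reduced totals here. With the reduced totals mt-Rnr2, at 1.05, passed beside mt-Co1, where 13 of the 188 genes were past 2-fold upward and 8 downward. With only sheet columns mt-Co1 stood at 0.80 and no member passed.

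In the colon the contrast of light with control rests on the shallow control library, in which most of the genes compared were lower. These genes had at least 20 molecule-equivalents over the pair, a filter that a gene passes more easily through the deeper colon light library. The ribosomal RNAs summed to 70490 CPM in colon light and 11251 CPM in colon control, a log2 ratio of 2.65 (2.30 to 3.01). The messenger members summed to 2438 CPM in colon light and 627 CPM in colon control, a log2 ratio of 1.92 (0.54 to 3.90). All 4 members were at least 2-fold higher in colon light, but so were 75.5% of the 208 genes compared (14.4% were lower by as much, and 89.9% were one or the other), and the median log2 ratio of 2.68 for the members stood beside 2.18 for all of them. The lincRNA gene Gm12374 alone took 17.7% of counts in colon control and 2.47% in colon light. With totals that leave it out, the log2 ratio was 2.40 (2.06 to 2.77) for the ribosomal RNAs and 1.68 (0.29 to 3.66) for the messenger members. The ratio of ribosomal to messenger RNA, which uses no total, differed by a log2 value of 0.69 (-1.22 to 2.19). For single members the log2 ratio was 2.83 (2.10 to 3.70) for mt-Rnr1, 2.59 (2.21 to 3.01) for mt-Rnr2, 2.76 (0.20 to 9.25) for mt-Co1 and 1.47 (-0.10 to 3.80) for mt-Nd1. Without Gm12374 in the totals mt-Co1 stood at 2.55 (-0.04 to 9.01), which includes 0.

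The light-treated libraries of the 2 tissues are the deepest pair, and here ribosomal and messenger RNA parted. The ribosomal RNAs were higher in colon light than in lymph node light, at 70490 CPM and 38188 CPM, a log2 ratio of 0.88 (0.77 to 1.00). The messenger members summed to 2438 CPM in colon light and 3016 CPM in lymph node light, a log2 ratio of -0.31 (-0.78 to 0.17). Its interval included 0, and the value turned to 0.022 with the reduced totals, which leave out the messenger members themselves. The ratio of ribosomal to messenger RNA was thus 2.28-fold higher in colon light, a log2 difference of 1.19 (0.69 to 1.67), and the 3 alternatives that can move a ratio within libraries gave 1.02, 1.17 and 1.20.

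The members differed widely among themselves in this comparison. The small-subunit RNA mt-Rnr1 was 4.05-fold higher in colon light, a log2 ratio of 2.02 (1.70 to 2.36), while mt-Rnr2 was 1.58-fold higher, a log2 ratio of 0.66 (0.53 to 0.78). The ratio of mt-Rnr2 to mt-Rnr1 was accordingly lower in colon light by a log2 difference of -1.37 (-1.72 to -1.01). For mt-Co1 the log2 ratio was 0.39 (-0.45 to 1.32), and for mt-Nd1 it was -0.66 (-1.26 to -0.08). The interval of mt-Nd1 included 0 under 4 alternatives. The value was -0.42 (-1.01 to 0.17) with median-of-ratios scaling and -0.34 (-0.93 to 0.25) with the reduced totals. It was -0.45 (-0.99 to 0.09) with each recovered molecule counted once, and -0.49 (-1.07 to 0.10) with only sheet columns. The ratio of mt-Nd1 to mt-Co1 differed by -1.07 (-2.13 to 0.02). Of the members only mt-Rnr1 passed 2-fold, where, of 304 genes, 13.5% were higher by 2-fold or more, 19.4% lower and 32.9% one or the other, and the median log2 ratio was 0.53 for the members and -0.34 for all genes. Median-of-ratios scaling put 50 genes past 2-fold upward and 38 downward, in place of 41 and 59. With the reduced totals the counts were 53 and 31.

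Between the control libraries, of the members only the ribosomal RNAs reached 20 molecule-equivalents. They summed to 11251 CPM in colon control and 20936 CPM in lymph node control, a log2 ratio of -0.89 (-1.30 to -0.51). It was -0.99 (-1.45 to -0.56) for mt-Rnr2 and -0.42 (-1.42 to 0.48) for mt-Rnr1. Neither passed 2-fold, where, of 89 genes, 29.2% were higher by 2-fold or more, 67.4% lower and 96.6% one or the other, and the median over all of them was -2.18. With the reduced totals mt-Rnr2 did pass that limit, at -1.10 (-1.56 to -0.67), where 25 of the 89 genes were past it upward and 61 downward. The messenger members gave -1.29 (-3.42 to 0.25) from 3.88 molecule-equivalents in colon control, and the ratio of the 2 kinds of RNA differed by 0.47 (-1.19 to 2.52), so a difference in that ratio was not detectable between the controls at the depth of colon control. All measured mitochondrial messenger RNAs together gave -2.10 (-4.20 to -0.69), and the median over all genes was of the same size. The messenger RNAs other than the members were 2.61-fold lower in colon control, with the floor of 3 molecule-equivalents in place of 0. That value leaves out counting error in lymph node control. The upper limit of the counting interval put colon control at 0.537 times the level in lymph node control.

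Set against each other, the light-to-control log2 ratios of the ribosomal RNAs differed between colon and lymph node by 1.78 (1.38 to 2.18). The same difference was 1.03 (-0.61 to 2.68) for the messenger members and 0.72 (-0.97 to 2.41) for the ratio of the 2 kinds of RNA. The first value lies in a contrast where the median of the genes passing the filter moved by 2.18 in the colon and -0.16 in the lymph node.

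**Figure D3:**
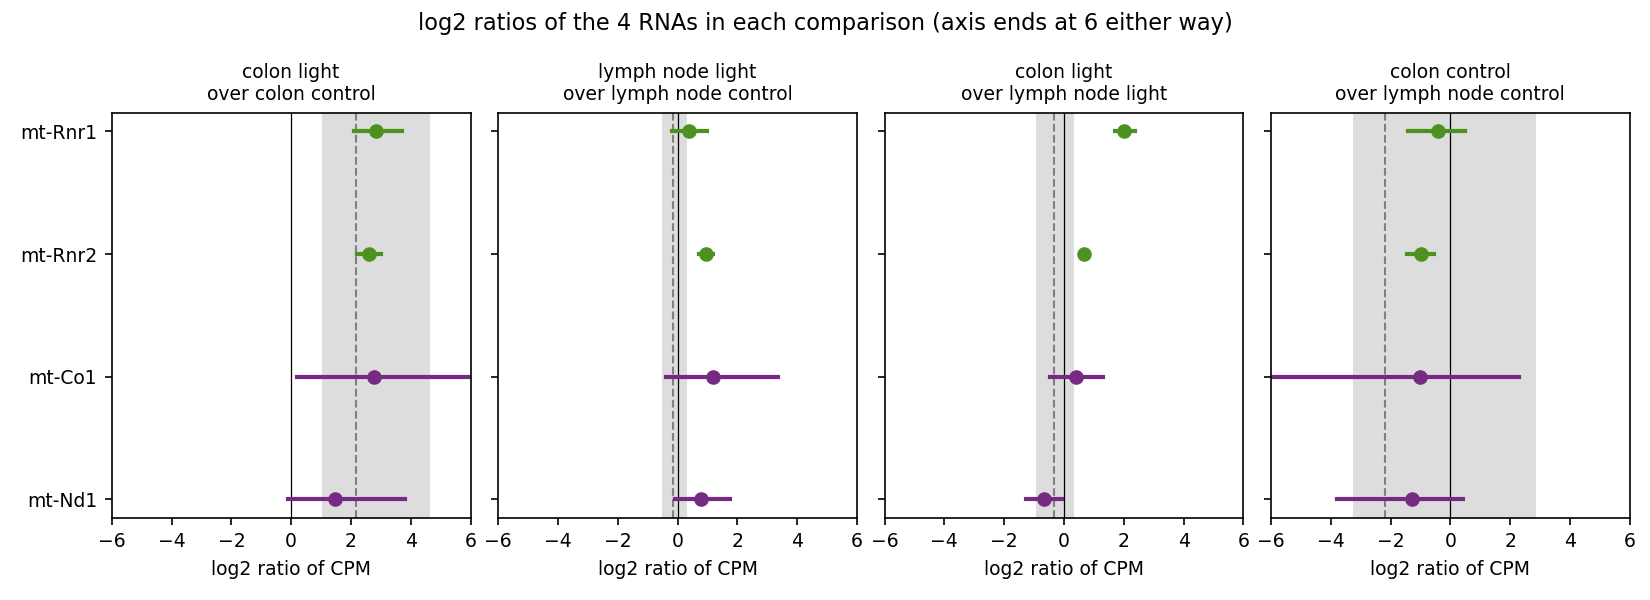
Log2 ratio of CPM for each RNA in 4 comparisons (points, with 95% counting intervals; ribosomal RNAs green, messenger RNAs purple), over the median (dashed) and middle 50% (grey) of all genes with at least 20 molecule-equivalents. Intervals that run past the axis are those of mt-Co1 in the comparisons with colon control. Colon light over lymph node light shows mt-Rnr1 at 2.02 and mt-Nd1 at -0.66.

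The 4 members hold most of what was counted from mitochondrial DNA, between 89.9% of mitochondrially encoded molecule-equivalents in lymph node control and 95.6% in colon light. Of 37 genes annotated on the mitochondrial chromosome, 22 had a count in at least 1 table, namely both ribosomal RNAs, 8 of 13 messenger RNAs and 12 of 22 transfer RNAs. The other messenger RNAs with counts were mt-Nd2, mt-Nd3, mt-Nd4, mt-Nd5 and mt-Nd6, all complex I subunits, and mt-Cytb, the cytochrome b of complex III. As a group they reached 60.1 molecule-equivalents in colon light, 0 in colon control, 38.9 in lymph node light and 14.6 in lymph node control. With the floor of 3 molecule-equivalents in place of 0, their level in colon light was 3.15-fold that in colon control. That value leaves out counting error in colon light, and the lower limit of the counting interval was 2.49-fold. On the log2 scale this limit was 1.31, below the median of 2.18 over all genes compared in the colon.

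These other messenger RNAs gave a second reading of the split between ribosomal and messenger RNA in the light-treated pair. Ribosomal RNA exceeded them by 46.1 times (35.7 to 60.5) in colon light and 20.8 times (15.1 to 29.5) in lymph node light, a log2 difference of 1.15 (0.52 to 1.77). The numerator is the same as before, and only the messenger counts are independent. Single genes were too sparse to rank: the log2 ratio of colon light to lymph node light was -0.79 (-1.99 to 0.36) for mt-Nd5, -0.66 (-2.18 to 0.83) for mt-Cytb, 0.36 (-1.05 to 2.00) for mt-Nd2, 0.40 (-1.59 to 2.91) for mt-Nd3 and 0.11 (-1.35 to 1.74) for mt-Nd4. For mt-Nd6, encoded on the minus strand, 1 molecule was recovered, in lymph node light.

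The tables used here list no value for mt-Co2, mt-Co3, mt-Atp6, mt-Atp8 and mt-Nd4l. All but mt-Atp8 have a nuclear copy in the annotation that matched nearly the whole transcript at 100% identity: Gm28661 for mt-Co2, Gm28437 for mt-Co3, Gm10925 for mt-Atp6 and Gm10222 for mt-Nd4l. Messenger RNAs that do have values can have such copies too: mt-Nd3 matched Gm28438 at 99.7% over 99.1% of its length, and mt-Nd4 matched Gm28439 at 100% over 63.6%. Among the members, mt-Co1 matched 3 nuclear copies. Gm29216 matched its last 483 bases at 99.8%, 479 of them unbroken to the annotated 3′ end, which includes the 60 bases printed above. Gm13340 matched all 1545 bases at 97.6%, and Gm11512 matched 654 bases at 90.7%. No nuclear copy of at least 50 bases at 90% identity was found for mt-Rnr1, mt-Rnr2 or mt-Nd1 among annotated transcripts. The search did not cover the genome, so it cannot show that copies outside the annotation are absent. The handling of reads that match several places was not stated in the labels, and the part of nuclear copies in the mt-Co1 level was not tested.

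Transfer RNAs carried the fewest counts of the 3 kinds. They summed to 1796 CPM in colon light, 625 CPM in colon control, 1603 CPM in lymph node light and 1271 CPM in lymph node control. The best measured was mt-Tc, which reads cysteine codons and lies on the minus strand, at 739 CPM in colon light, 535 CPM in colon control, 772 CPM in lymph node light and 667 CPM in lymph node control. The summed log2 ratio was 0.33 (-0.59 to 1.33) for lymph node light over lymph node control and 0.16 (-0.45 to 0.80) for colon light over lymph node light. The labels do not state whether counting used strand, so RNA of the opposite strand cannot be told apart from the gene's own.

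Respiratory complexes need nuclear subunits as well, and these did not follow the mitochondrial messenger RNAs in the lymph node. Nuclear genes of complexes I to V summed to 369 molecule-equivalents in lymph node light and 228 in lymph node control, a log2 ratio of CPM of -0.19 (-0.43 to 0.06). All 8 measured mitochondrial messenger RNAs summed to 4850 CPM in lymph node light and 2882 CPM in lymph node control, 0.74 (0.17 to 1.36). Relative to the nuclear genes, mitochondrial messenger RNA was therefore higher in lymph node light, at a ratio of 0.279 (0.222 to 0.348), against 0.146 (0.098 to 0.210) in lymph node control, a log2 difference of 0.94 (0.31 to 1.61). Within complex IV, the ratio of mt-Co1 to nuclear subunit genes differed by 1.63 (-0.12 to 3.66), and within complex I, the ratio of mt-Nd1 to nuclear subunit genes by 0.85 (-0.16 to 1.88).

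By group, the summed log2 ratio of lymph node light over lymph node control was -0.06 (-0.50 to 0.39) for 42 complex I genes, 0.20 (-0.65 to 1.10) for 13 genes of complexes II and III with cytochrome c, -0.37 (-0.81 to 0.08) for 10 complex IV genes and -0.25 (-0.71 to 0.21) for 16 complex V genes. Of the complex IV genes, 5 passed the filter and 0 were 2-fold apart, beside 11.2% of all 188 genes. Cox8a, a small structural subunit, stood at 825 CPM in lymph node light and 1316 CPM in lymph node control, and Cox4i1, a regulatory subunit, at 727 CPM in lymph node light and 804 CPM in lymph node control. Genes for proteins of the mitochondrial ribosome, the partners of mt-Rnr1 and mt-Rnr2, gave -0.16 (-0.63 to 0.32), and 0 of their 68 measured genes passed the filter.

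In the light-treated pair the nuclear partners had lower CPM in the colon with the full totals, opposite to the ribosomal RNAs. Mitochondrial ribosomal protein genes summed to 2733 CPM in colon light and 4801 CPM in lymph node light, a log2 ratio of -0.81 (-1.22 to -0.41). The values were -0.91 (-1.30 to -0.54) for complex I, -0.55 (-1.21 to 0.10) for complexes II and III, -0.53 (-0.91 to -0.15) for complex IV and -0.75 (-1.15 to -0.36) for complex V, and the median over all 304 genes was -0.34. With the reduced totals that median was -0.02, and the ribosomal RNA sum stood at 1.21. The size of these nuclear values therefore depends on the totals, and they were not computed with the reduced ones. Mitochondrial messenger RNA relative to the nuclear respiratory genes was 0.375 (0.310 to 0.452) in colon light and 0.279 in lymph node light, a log2 difference of 0.43 whose interval only just excluded 0. Genes of mitochondrial transcription and RNA handling were sparse, with 22.7 molecule-equivalents over 10 genes in colon light and 11.9 over 11 genes in lymph node light, a log2 ratio of 0.04 (-1.03 to 1.19).

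**Figure D4:**
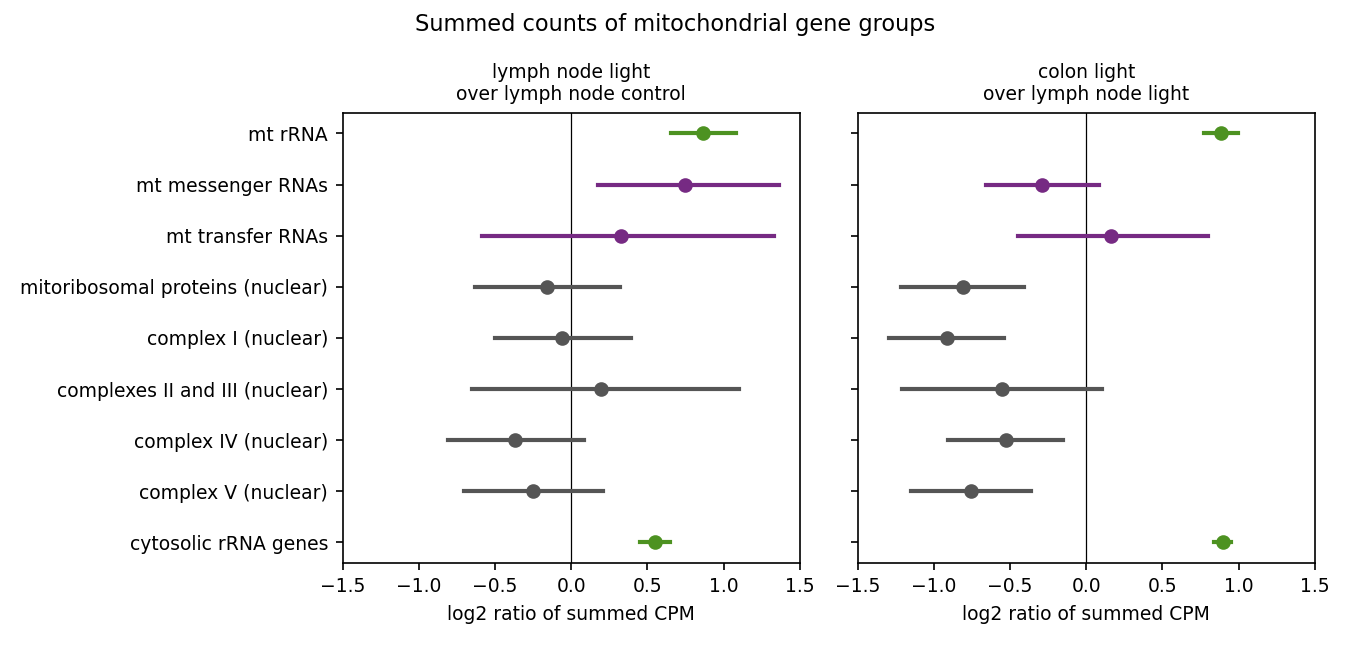
Log2 ratio of summed CPM, with 95% counting intervals, for gene groups of the mitochondrion and for cytosolic ribosomal RNA genes, in lymph node light over lymph node control (left) and colon light over lymph node light (right). Mitochondrial ribosomal RNA lies at 0.87 on the left and 0.88 on the right, mitochondrial messenger RNAs at 0.74 and -0.29, and nuclear complex I genes at -0.06 and -0.91.

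Ribosomal RNA of the cytosol moved with that of the mitochondrion. CT010467.1, annotated as a ribosomal RNA gene at chr17:39846353-39848827 on the minus strand, overlaps Gm42418 and took 28.4% of counts in colon light, 5.02% in colon control, 15.3% in lymph node light and 10.5% in lymph node control. Mitochondrial ribosomal RNA relative to it was 0.248 (0.238 to 0.259) in colon light, 0.224 (0.170 to 0.292) in colon control, 0.249 (0.231 to 0.269) in lymph node light and 0.200 (0.173 to 0.230) in lymph node control. Between the light-treated libraries this ratio differed by a log2 value of -0.01 (-0.13 to 0.12). The near equality covers opposite moves of the members: the same log2 difference was 1.13 (0.80 to 1.47) for mt-Rnr1 and -0.23 (-0.37 to -0.10) for mt-Rnr2. In the lymph node, the ratio to CT010467.1 was higher after light by 0.32 (0.08 to 0.55) for both ribosomal RNAs together, with 0.39 (0.15 to 0.64) for mt-Rnr2 and -0.17 (-0.73 to 0.47) for mt-Rnr1. The part of the total amount of ribosomal RNA captured in each library was not tested.

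A likeness of pattern over the 4 libraries was measured as the root mean square difference of centred log2 CPM, among 215 genes with enough counts. Closest to mt-Rnr2 were CT010467.1 at 0.15, Snw1, a splicing and transcription factor, at 0.23 and Btg1, an antiproliferative gene, at 0.26; mt-Co1 was as close, at 0.15, and mt-Rnr1 and mt-Nd1 were farther, at 0.53 and 0.58. Closest to mt-Rnr1 were Hspa5, the chaperone of the endoplasmic reticulum, at 0.23 and Btg1 at 0.27. Closest to the sum of the messenger members were Sh3bgrl3 at 0.14, Snw1 at 0.17 and Ptprc, which encodes CD45, at 0.18. In colon control Snw1, Btg1, Hspa5, Sh3bgrl3, Ptprc and mt-Co1 all lie under the floor of 485 CPM used for a count of 0 there, so the distances and their order are uncertain, and they carry no test.

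The labelled cell type was checked against its markers. T cell markers, among them Trbc2, part of the receptor's beta chain, took 0.312% of counts in colon light, 0.052% in colon control, 0.829% in lymph node light and 0.973% in lymph node control, with 13, 4, 13 and 13 of 14 genes detected. Among those at 0 in colon control were Trac, Trbc1, Cd2 and Cd5. The lines of Cd4, Cd3e, Cd3d and Cd3g in colon control repeat another table and were not used, so the label could not be checked well there. These unused lines add nothing to the share of colon control and are counted among its genes not detected, so its values cover fewer markers than the others. Myeloid markers, led by Lyz2, the macrophage and neutrophil lysozyme, took 0.217%, 0.062%, 0.051% and 0.034% of counts in colon light, colon control, lymph node light and lymph node control, with 6, 3, 4 and 3 of 12 genes detected. All 12 markers of colon epithelium were at 0 in the 4 libraries. Between the light-treated libraries T cell markers thus differed by a log2 ratio of -1.41 (-1.76 to -1.07) and myeloid markers by 2.06 (1.18 to 3.16), beside the higher ribosomal RNA of colon light, and their part in that result was not tested.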

How the data were processed

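Per the labels' protocols, RNA of cells labelled CD4 T cell was captured with a probe that joins a sample barcode, a molecular identifier and oligo-dT. Per the submitters' processing notes, FastQC, STAR 2.5.1a and mm10 were used; no label or header states how genes were counted. Values as deposited by the authors are counts, whole numbers for each gene and barcode column (382 columns in colon light, 384 in colon control, 379 in lymph node light and 382 in lymph node control). The lymph node tables end in an unnamed line equal to 50.0% of all counts, which was left out.

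Each gene line was solved into column patterns that recur in at least 2 genes, with weights of 0 or more; this was exact for 93.3%, 92.6%, 96.7% and 92.6% of genes, holding 39.2%, 42.5%, 62.9% and 55.9% of counts, in colon light, colon control, lymph node light and lymph node control. The line of mt-Rnr2 was not exact in any library, nor that of mt-Rnr1 in the light libraries. Summed counts (1959269, 433663, 1068832 and 971204 in the same libraries) were divided by the size-weighted columns per molecule (49.9, 70.2, 50.4 and 84.5) to give molecule-equivalents. Whether molecular identifiers were collapsed is not stated, and intervals and floors cover counting error only. A count of 0 allows up to 3 molecule-equivalents, or 76.3, 485, 141 and 261 CPM in these libraries. The lines of Foxp3 in every library, and of Cd4, Cd3e, Cd3d and Cd3g in colon control, repeat another table by column position (correlation above 0.5, misfit above 0.4) and were left out; correlations of the 4 members ran between -0.15 and 0.09. The deposited barcode sheet names 16 barcodes, an entry of letters with no numeric value; 0 of them are columns of the colon control table and 16 of each other table, so it formed no replicates.

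Log2 ratios of CPM used a prior of 0.5 molecule-equivalents scaled to depth. Intervals are 95% Clopper-Pearson for shares and ratios, Fisher's conditional interval for ratios of ratios, and normal on the log2 scale for the difference of light ratios. A gene counted as apart at 2-fold or more, given at least 20 molecule-equivalents over the pair of libraries. The planned lists name at most 4 genes each, by count; like-pattern genes are the nearest 5. Members and lists were chosen with earlier results of these data known. Names matched GENCODE M21 for 10136 of 10291 genes; nuclear copies were sought with blastn among its transcripts. Scripts were tested on simulated data, with Python 3.11.15, numpy 2.4.6, scipy 1.17.1 and pandas 2.3.3.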

Additional observations from a re-analysis of the deposited data

Results flagged for a closer look

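The ratio of mitochondrial ribosomal to messenger RNA had a light-to-control log2 ratio of opposite sign in the tissues, 0.69 (-1.22 to 2.19) in the colon and -0.033 (-0.85 to 0.79) in the lymph node. Likewise the ratio of mt-Rnr2 to mt-Rnr1 gave -0.25 (-1.27 to 0.58) in the colon and 0.56 (-0.11 to 1.16) in the lymph node. All 4 intervals include 0. With each recovered molecule counted once, the lymph node value of mt-Rnr2 to mt-Rnr1 was 0.70 (0.10 to 1.27), which excludes 0. The difference between the tissues was 0.72 (-0.97 to 2.41) for the first ratio, also including 0, and was not tested for the second.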

How the results depend on the processing

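Over the alternatives run, every log2 ratio of the 4 members kept its sign in each comparison. Of their sums and ratios, 2 changed sign, both with intervals that include 0: the messenger sum in the light-treated pair, up to 0.022, and the ratio of ribosomal to messenger RNA in the lymph node, up to 0.23. A ratio within libraries cannot move under a change of scaling or total; the 3 alternatives that can move it gave 1.02 to 1.20 in the light-treated pair. The interval of mt-Nd1 in the light-treated pair came to include 0 under 4 alternatives, and that of the messenger sum in the lymph node under 1, at 0.62. Other intervals also changed in this way, and not all are listed. In the colon, mt-Co1 came to include 0 without Gm12374 in the totals, at 2.55 (-0.04 to 9.01). With the reduced totals mt-Nd1 came to exclude 0, at 2.00 (0.45 to 4.36) in the colon and 0.89 (0.04 to 1.86) in the lymph node. Median-of-ratios scaling, on 551 genes, raised the median log2 ratio of all genes to 0.08 in the lymph node, against -0.16, and to -0.10 in the light-treated pair, against -0.34. It put the ribosomal RNA sum at 1.10 for lymph node light over control and 1.13 for colon light over lymph node light, with 18 genes 2-fold higher and 7 lower in the lymph node and 38 lower in the light-treated pair. The reduced totals, without mitochondrially encoded genes and cytosolic ribosomal RNA genes, put the same sum at 3.20 for colon light over colon control. They gave 1.21 for colon light over lymph node light with 31 genes lower, and 2.21 for the difference of light ratios. Using only columns named in the barcode sheet gave 1.01 for colon light over lymph node light, and no value for colon control, which has no such column.

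Counts of genes 2-fold apart followed the filter, with fewer genes tested as it rises. At 10 molecule-equivalents they were 40 higher and 39 lower in the lymph node, 313 and 54 in the colon, 108 and 149 in the light-treated pair, and 42 and 145 in the controls. At 100 they were 1 and 3, 18 and 7, 3 and 2, and 7 and 5 in the same comparisons. With no filter they were 2469 and 1688, 3649 and 1806, 2351 and 3038, and 1730 and 2890. With deposited sums taken as raw counts, where the same limit of 20 removes fewer genes, they were 3426 and 1955, 5462 and 1858, 3213 and 3330, and 1824 and 3115.

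No paired analysis was possible because each group is 1 library; for the same reason no replicate was left out. Depth limits every statement on mt-Co1 and mt-Nd1 in colon control, which rest on 1 and 3 molecules, and the single-gene values of the other mitochondrial messenger RNAs.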

Other observations

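Genes of mitochondrial transcription and RNA handling took 0.289% of counts (0.171 to 0.457) in colon control, from 17.8 molecule-equivalents in 2 genes, and 0.058%, 0.056% and 0.034% in colon light, lymph node light and lymph node control, from 10, 11 and 2 genes. Mitochondrial stress genes, such as chaperones and proteases of the matrix, took 0.077% in colon light, 0 in colon control, 0.059% in lymph node light and 0.092% in lymph node control; the log2 ratio was -0.63 (-1.96 to 0.68) for lymph node light over control and 0.38 (-0.61 to 1.47) for colon light over lymph node light. Antioxidant genes gave 0.35 (-0.56 to 1.35) and -0.35 (-1.003 to 0.31) in the same comparisons. Regulators of mitochondrial biogenesis reached 2.86 molecule-equivalents at most in a library, which is under the floor. Markers of B and plasma cells, of CD8 T and NK cells, of stroma and endothelium, and of red cells took at most 0.036%, 0.020%, 0.011% and 0.003% of counts in any library.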
